A study of Mus musculus with 2 samples.

Results

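The cells that the authors named qNSC1, for quiescent neural stem cells, are those of the deposited table of cluster 7, and every column of that table was taken as a member. They numbered 292 of the 10804 cells of the series, 134 of 5543 in the WT library and 158 of 5261 in the iKD library. The labels and the tables give cluster 7 the name qNSC1 and cluster 5 the name qNSC2, whereas a cell count sheet of the study attaches these names the other way round, so the name is used here only for the cells of the cluster 7 table. Both libraries were made from EYFP+ cells sorted from the dentate gyrus (DG) of adult mice, with 5 littermates pooled in each. All mice carried NestinCreERT2, a tamoxifen-inducible Cre driven by Nestin regulatory sequence, and ROSA-STOP-EYFP, a Cre-dependent fluorescent reporter. The iKD mice were Vegfa lox/lox and the WT mice were Vegfa wt/wt. Both groups were 7 to 10 weeks old at the start, received tamoxifen (TAM) at 180 mg/kg/d for 5 d and were sorted 21 d after TAM. As 1 pooled library stood for each genotype, there are no replicates, no test between genotypes was possible and no p-value is given.

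Quiescent neural stem cells of the DG are radial glia-like cells that express Hopx, Sox2, Gfap and Nes and give rise to intermediate progenitors and neuroblasts. Microglia, the resident macrophages of brain parenchyma, are known by Cx3cr1, P2ry12 and Tmem119, which are high in the surveying, homeostatic state. Around dying cells, myelin debris or protein deposits, microglia are known to lose some of that signature and to express lysosomal and lipid-handling genes (Apoe, Lpl, Cd63, Cd9, Lgals3), while acute stimulation induces chemokines such as Ccl3 and Ccl4.

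The qNSC1 cells expressed the markers of microglia and almost none of those of neural stem cells, which goes against their name. Of 15 homeostatic microglia markers, all 15 were found in over 50% of the qNSC1 cells of each library, and the median marker was found in 99.3% of WT and 98.7% of iKD cells. Levels are given throughout as the mean over cells of UMIs per 10,000 UMIs of the cell, where a UMI is 1 counted transcript molecule. Cx3cr1, the fractalkine receptor, stood at 32.02 in WT and 30.7 in iKD cells, and P2ry12, a purinergic receptor, at 15.7 in WT and 16.8 in iKD cells. The receptor Csf1r, on which microglial survival depends, stood at 20.7 in WT and 20.7 in iKD cells. The libraries were close to each other in these markers.

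Of the 11 neural stem cell markers, 6 had no UMI in WT and 6 none in iKD cells, Sox2 among them. Eomes, of intermediate progenitors, and Dcx, the microtubule protein of neuroblasts, had none in either. Taken as an upper 95% limit alone, a count of 0 allows up to 3 UMIs of the 1152044 in WT and 1205485 in iKD cells. Summed over the list, the neural stem cell markers stood at 0.421 in WT and 0.418 in iKD cells, and most of this came from Nes, at 0.320 in WT and 0.330 in iKD cells. Nes encodes the intermediate filament protein nestin, and its regulatory sequence drives the Cre of this model.

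Nes was found in 15.7% of WT qNSC1 cells (95% exact binomial interval 9.97 to 22.95%) and 8.86% of iKD qNSC1 cells (4.93 to 14.4%), against 0.629% and 0.725% of the cells of the other clusters. After thinning every cell to 4500 UMIs, the shares were 10.5% and 9.21% against 0.389% and 0.484%. The 37 and 40 Nes UMIs of the qNSC1 cells were 46.2% and 48.2% of all Nes UMIs of the libraries, so this small cluster held nearly as many as all others together. No transcript of EYFP or Cre is among the listed genes, so the sort was not checked.

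Defining markers of other cells were near 0, with 3 exceptions. Stab1, a scavenger receptor in the border macrophage list, stood at 1.62 and 1.56 against 2.18 and 1.84 in the other clusters, while 8 of the 10 genes of that list had no UMI in WT and 5 had none in iKD qNSC1 cells. Slc1a3, a glutamate transporter in the astrocyte list, stood at 2.35 and 3.07 against 3.75 and 3.11, while the other 5 genes of that list lay below 0.5. Ttr, the secreted transthyretin of choroid plexus epithelium, stood at 0.125 in WT and 9.82 in iKD cells. The lists of other leukocytes, neuroblasts, oligodendrocyte precursors, mural cells and ependyma each summed to at most 0.0558 in either library. The summed levels were 0.774 and 0.855 against 1.03 and 0.981 for the oligodendrocyte list, 0.359 and 0.137 against 0.397 and 0.334 for granule neurons and 0.231 and 0.165 against 0.306 and 0.268 for endothelium.

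**Figure D1:**
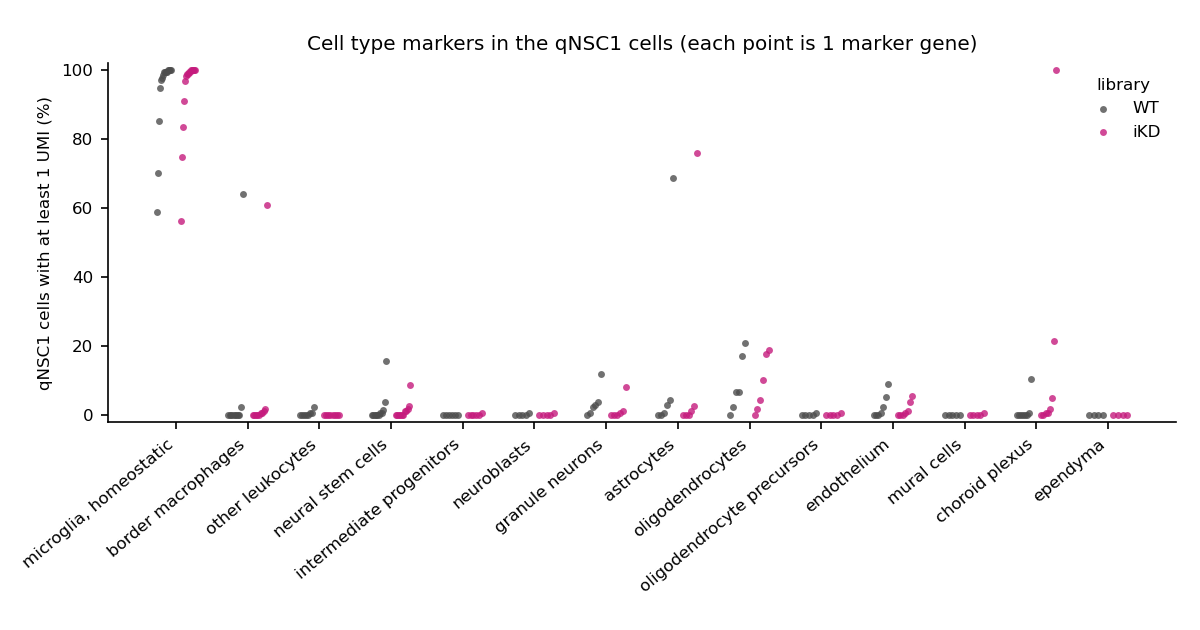
Share of qNSC1 cells with at least 1 UMI (y axis, percent) for each gene of 14 cell type lists (x axis), with WT in grey and iKD in magenta and 1 point per gene. The homeostatic microglia markers lie above 50% in each library, and of the other markers only Stab1, Slc1a3 and, in iKD, Ttr do so.

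The qNSC1 cells were 2.42% of the WT library (2.03 to 2.86%) and 3.003% of the iKD library (2.56 to 3.501%), and these intervals overlap. They held medians of 8608 and 7556 UMIs and of 3221 and 3062 genes per cell, and the WT library was also the deeper one in the other clusters. The study's methods give a lower limit of 2000 genes per cell, and 2 WT and 4 iKD qNSC1 cells lay below it. By UMIs of Xist and of Y-linked genes, 64.2% of WT (55.4 to 72.3%) and 68.4% of iKD qNSC1 cells (60.5 to 75.5%) scored female only, and each library had 1 qNSC1 cell with UMIs of both. The libraries shared 9 cell barcodes, 0 of them in a qNSC1 cell. Ribosomal protein genes took 5.74% and 5.61% of the UMIs, and mitochondrial genes 1.02% and 0.998%.

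Vegfa, the targeted gene, was close to the limit of detection in these cells. It had 8 UMIs in WT (95% exact Poisson interval 3.45 to 15.8) and 8 in iKD cells, and was found in 5.22% of WT and 3.797% of iKD cells. Its level was 0.0675 in WT and 0.0688 in iKD cells. The tables do not record where in a transcript the UMIs fall, so these counts do not check the deletion, and a difference was not detectable at this depth. Intervals throughout cover counting error only.

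The genes with the highest levels were also those of microglia and of most cells. Cst3, the secreted protease inhibitor cystatin C, came first with 407 in WT and 407 in iKD cells, followed by the nuclear RNA Malat1 with 271 in WT and 248 in iKD cells. Ctsd, a lysosomal aspartic protease, stood at 93.4 in WT and 85.6 in iKD cells, and C1qa, a chain of the complement recogniser C1q, at 76.3 in WT and 79.3 in iKD cells. C1qb, Tmsb4x, Actb, C1qc and Ctss were also among the 10 highest.

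Against the cells of the other 11 clusters, the qNSC1 cells stood out in chemokine, lysosomal and lipid genes. The microglia markers themselves were shared, as the 15 homeostatic markers summed to 379.8 in WT and 387 in iKD qNSC1 cells and to 425 and 410.5 in the other cells. The clusters were made from these same cells and genes, so that the comparison is a description and not a test. A gene is called higher or lower here where its level differed at least 1.5-fold in the same direction in both libraries and reached 0.5 on the higher side. Among 4193 genes at that level, 269 (6.42%) were higher and 168 (4.01%) lower than in the other clusters, and the median log2 ratio over all of them was -0.04. Leaving out, for each gene, the 2 qNSC1 cells of each library with its highest values, which lowers every qNSC1 level, 177 were higher and 305 lower.

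Gas2l3, a linker of actin and microtubules, was furthest above the other clusters. Its level was 1.26 in WT and 0.574 in iKD cells, against 0.0177 and 0.0163 in the other cells. The log2 ratio was 5.52 (95% counting interval 5.10 to 5.95) within the WT library and 4.47 (3.96 to 4.99) within the iKD library. The mean of both was 5.00, and 3.03 with a pseudocount of 0.1 in place of 0.01, as the other cells are close to 0. Of all its UMIs, 65.1% and 51.9% lay in qNSC1 cells. Ccl4, a chemokine of the macrophage inflammatory protein family, was the most abundant of the leading genes, with 33.3 and 21.03 against 1.36 and 1.16. The highest of the 7 large clusters qNSC2, aNSCs, NSPCs, IPC1, IPC2, eNB and NB reached 2.97 in WT (IPC1) and 2.52 in iKD (aNSCs). The related chemokine Ccl3 stood at 10.3 and 8.67 against 0.741 and 0.741.

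Lgals3, the galactose-binding galectin of phagocytes, stood at 0.714 and 0.536 against 0.00900 and 0.0310. It was higher still in the small clusters named Undefined in WT, at 0.893, and Astrocytes in iKD, at 0.937, and its mean log2 ratio of 4.49 was 2.48 when the 11 clusters counted equally and 2.59 with a pseudocount of 0.1. Lpl, which releases fatty acids from lipoproteins, stood at 1.43 and 1.76 against 0.0926 and 0.0715, and Csf1, a ligand of Csf1r, at 3.01 and 1.86 against 0.179 and 0.191. The other genes among the 12 furthest above were Olfr111, Efna5, Gadd45b, Plaur, Xylt1 and Tnfrsf12a, with mean log2 ratios of 3.03 to 3.79. For each of the 12 genes the lower of both qNSC1 levels was above the highest level of the 7 large clusters in either library. Outside those 7, Xylt1 stood at 0.751 in WT cells of the cluster named IN2, above the 0.573 of iKD qNSC1 cells. Gadd45b stood at 0.447 in WT cells of Undefined, above the 0.405 of iKD qNSC1 cells. Olfr111 belongs to a multigene family whose members can share reads, so its count is uncertain. The Efna5 level in WT rested on few cells, as 64.97% of its UMIs lay in 2 of them, and its mean log2 ratio was 2.16 without the 2 highest cells of each library.

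**Figure D2:**
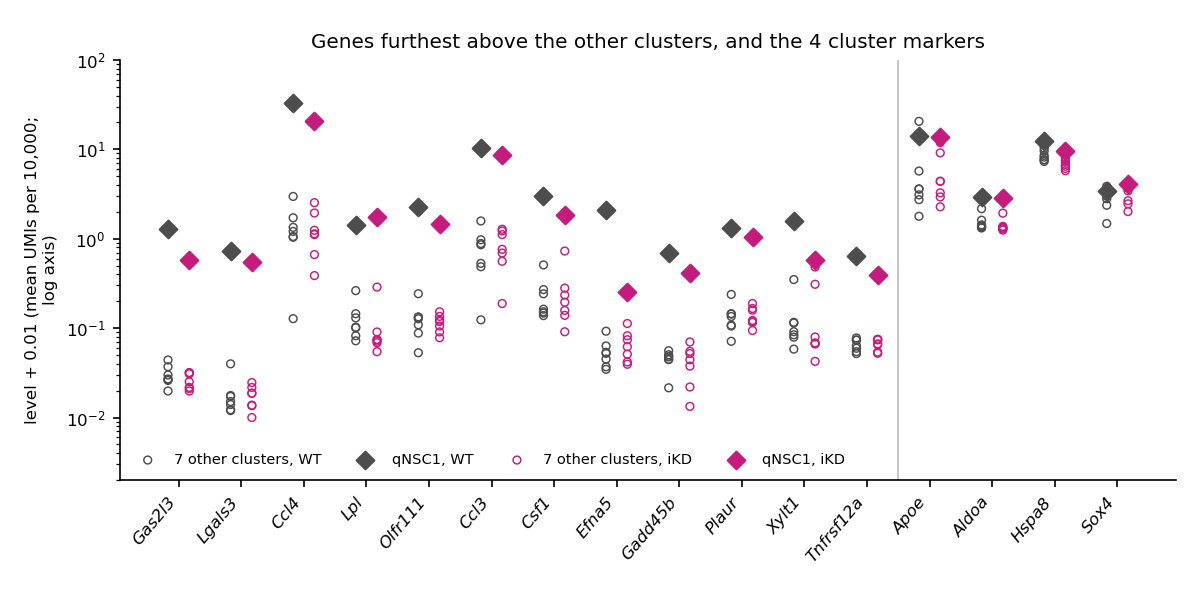
Level (mean UMIs per 10,000 plus 0.01, log axis) of the 12 genes furthest above the other clusters and of the 4 markers given for the cluster (x axis), with qNSC1 as filled diamonds and the 7 large other clusters as open circles, WT in grey and iKD in magenta. The diamonds of the 12 genes lie above all circles, whereas for Sox4 and Apoe a circle of WT lies above the WT diamond.

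The sequences before the transcription start of 3 of these genes and of Ctsd are shown because they hold letters of motifs known from inflammatory and lysosomal genes. They are the 250 bases before the start in RefSeq on GRCm38.p6, in gene direction, and the build of the deposited data is not given. Capitals mark matches on either strand to GGGA, any 4 bases and CC, to TGANTCA (the AP-1 motif) or CACGTG (the E-box of bHLH factors). The first pattern is a simplified form of the motif of NF-kB factors and is called kappaB here.
Lgals3: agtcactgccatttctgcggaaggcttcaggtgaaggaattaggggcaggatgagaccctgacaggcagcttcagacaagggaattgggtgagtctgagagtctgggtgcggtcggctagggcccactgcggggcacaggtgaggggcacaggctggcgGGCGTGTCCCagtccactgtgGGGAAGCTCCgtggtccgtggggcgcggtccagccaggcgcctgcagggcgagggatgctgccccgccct
Csf1: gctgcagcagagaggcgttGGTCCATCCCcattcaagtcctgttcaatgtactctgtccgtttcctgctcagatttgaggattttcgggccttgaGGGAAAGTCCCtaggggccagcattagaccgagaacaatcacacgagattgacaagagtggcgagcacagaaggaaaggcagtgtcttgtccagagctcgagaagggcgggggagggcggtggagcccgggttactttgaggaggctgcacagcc
Plaur: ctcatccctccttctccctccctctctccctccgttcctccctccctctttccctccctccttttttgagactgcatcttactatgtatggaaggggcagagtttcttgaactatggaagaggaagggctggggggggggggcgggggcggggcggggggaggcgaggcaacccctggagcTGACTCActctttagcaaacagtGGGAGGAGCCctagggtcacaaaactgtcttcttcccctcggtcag
Ctsd: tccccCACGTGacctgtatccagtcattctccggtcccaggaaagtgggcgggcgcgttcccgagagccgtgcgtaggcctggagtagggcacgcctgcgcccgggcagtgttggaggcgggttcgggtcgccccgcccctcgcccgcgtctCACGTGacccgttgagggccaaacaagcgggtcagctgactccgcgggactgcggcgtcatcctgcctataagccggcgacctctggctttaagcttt
They lie at chr14:47373610-47373859 on the plus strand for Lgals3, chr3:107760470-107760719 on the minus strand for Csf1, chr7:24462233-24462482 on the plus strand for Plaur and chr7:142387828-142388077 on the minus strand for Ctsd. Lgals3 has 2 kappaB matches, Csf1 has 3, of which 2 overlap, Plaur has a kappaB and an AP-1 match, and Ctsd has 2 E-boxes. Of the other leading genes, Gas2l3, Ccl3, Olfr111, Efna5 and Tnfrsf12a have no match to these letters in their windows, Gadd45b has an E-box, and Ccl4, Lpl and Xylt1 had no entry. The cytokine gene Tnf, which was searched besides Ctsd and the leading genes, has no match either.

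The kappaB letters occur in 29.3% of the 215 higher genes with an entry, 34.7% of 121 lower genes, 26.7% of 3343 genes at the level and 19.7% of all 27025 symbols. The AP-1 letters occur in 9.302%, 4.13%, 5.12% and 7.82% of the same sets, and the E-box in 16.7%, 14.1%, 11.5% and 6.86%. Of 16 lysosomal genes with an entry, 4 hold the kappaB letters, 2 the AP-1 letters and 5 the E-box, and of 8 chemokine and cytokine genes 3, 3 and 0.

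Several inflammatory mediators were higher. A gene that reached the level of 0.5 only in qNSC1 cells could be called higher but not lower, so the members of a list are counted here over the 3741 genes that reached it in the other clusters of both libraries, of which 3.77% were higher and 4.36% lower in qNSC1. Of 14 listed chemokine and cytokine genes, Ccl3, Ccl4, Ccl12, Il1a and Cd83 were among these and all 5 were higher. Ccl2, Cxcl16 and Tnf reached the level only in qNSC1 cells, and the other 6 listed genes did not reach it. Ccl2, a monocyte attractant, stood at 2.53 and 0.630 against 0.144 and 0.169, and most of its WT UMIs in qNSC1 lay in few cells. In aNSCs it stood at 0.545 in WT and 1.08 in iKD, so in iKD it was above qNSC1. Tnf stood at 1.58 and 1.19 against 0.202 and 0.189. Cd83, a surface protein of activated myeloid cells, stood at 5.804 and 4.36 against 0.736 and 0.693. Ccl12, Cxcl16 and Il1a had mean log2 ratios of 0.77, 1.60 and 0.88. Relb, which reached the level only in qNSC1, was the only gene called higher of 7 NF-kB subunits and feedback inhibitors, and of 15 immediate early genes Atf3 was higher while Fosb, Klf2 and Klf4 were lower. Jun, an AP-1 subunit that rises when tissue is dissociated, stood at 29.8 and 31.6 against 36.9 and 39.8.

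Of 20 genes of disease-associated microglia in the tables, 10 reached the level in the other clusters, of which 6 were higher and 0 lower. These 6 were Apoe, Cd9, Ctsb, Ctsd, Cd63 and Ccl6, while Lpl, Csf1 and Lgals3 reached it only in qNSC1. Cd63 and Cd9, tetraspanins of endosomes and of the cell surface, stood at 14.3 and 12.1 against 2.27 and 2.31, and at 25.5 and 20.8 against 7.58 and 7.17. Ctsb, a lysosomal cysteine protease, stood at 26.9 and 23.5 against 8.65 and 8.29. Trem2, a lipid-sensing receptor, and its adaptor Tyrobp were not called, with mean log2 ratios of 0.30 and 0.34. Itgax, Cst7, Spp1 and Axl stayed below the level of 0.5, and Itgax, an integrin of activated myeloid cells, stood at 0.275 and 0.310 against 0.00876 and 0.0129.

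Of the genes that export or store lipid, Abca1, Abcg1, Apoe, Soat1 and Lipa reached the level in the other clusters, and all 5 were higher. The cholesterol transporters Abca1 and Abcg1 had mean log2 ratios of 0.77 and 1.14. Lpl, the droplet coat protein Plin2, with 1.49, and the cholesteryl ester hydrolase Nceh1, with 1.92, reached it only in qNSC1. No gene of cholesterol synthesis and uptake reached the level. Of 18 lysosomal genes, 8 were higher and 0 lower, with the protease Ctsz at 23.6 and 21.8 against 10.3 and 10.05 and the membrane protein Cd68 at 8.21 and 7.71 against 4.22 and 4.17. Of 8 complement genes the receptors C3ar1, with 1.34, and C5ar1, with 1.55, were higher, while the C1q chains were not called.

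Some glycolytic, chaperone and nucleolar genes were higher. Of 12 glycolytic genes at the level in the other clusters, Pfkfb3, Aldoa, Tpi1, Pkm and Ldha were called higher, and Slc16a3 reached it only in qNSC1. Of 11 chaperones, Hsp90ab1, Hspa5 and Hspd1 were higher, with a median of 0.49. Of 5 genes of ribosome biogenesis at the level in the other clusters, Ncl, Npm1 and Nop56 were higher, and Nop58 and Nolc1 reached it only in qNSC1. Of 78 cytosolic ribosomal protein genes 2 were called higher, of 65 nuclear genes of oxidative phosphorylation 0, and of 30 proteasome genes 0. Their median log2 ratios were 0.26, 0.07 and 0.26, beside -0.08 over all 3741 genes at the level in the other clusters.

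Of 7 antigen presentation genes at the level in the other clusters, H2-K1 and H2-D1 were higher. Cd74, the invariant chain of class II molecules, reached the level in qNSC1 but not over all cells of the other clusters. It stood at 1.75 and 1.15 against 0.284 and 0.163. Some single clusters lay above qNSC1 in Cd74, with qNSC2 at 4.26 in WT, and aNSCs at 1.94 and Undefined at 1.27 in iKD. In the opposite library, qNSC2 stood at 0.566 in iKD and aNSCs at 0.413 in WT, below qNSC1. Against qNSC2, 0 of 11 antigen presentation genes were higher and 1 was lower, with a median log2 ratio of -0.13. Only 1 of 14 interferon response genes reached the level and it was not called. Proliferation genes were near 0 in these cells. Mki67 had a level of 0.00685 in WT and 0 in iKD cells, and Top2a of 0 in WT and 0.0117 in iKD cells. Of the cell cycle list only Pcna, a DNA replication clamp, and Stmn1, a tubulin-binding protein, reached the level, with mean log2 ratios of 0.95 and 1.04. Stmn1 reached it only in qNSC1. Of the VEGF ligands and receptors, Vegfb and Nrp2 were higher, with 0.88 and 1.16, and Nrp1 was not called. The receptor genes Flt1 and Kdr lay at or below 0.0602.

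Some homeostatic markers were lower. Of the 15, P2ry12, Tmem119, Siglech, Selplg and Slc2a5 were called lower and 0 higher, with a median of -0.35. P2ry12 stood at 15.7 and 16.8 against 30.3 and 29.8, and Tmem119, a membrane protein of microglia, at 6.69 and 6.81 against 12.7 and 12.1. For both genes qNSC1 lay below the 7 large clusters in each library. The cluster named IN2, of 288 cells, was lower still. It stood at 13.98 in WT and 15.2 in iKD for P2ry12, and at 5.49 in WT and 3.68 in iKD for Tmem119. Ctnnd2, Khdrbs3, Kcnk12, Fry, Mtss1, Bank1, Pde4d and Slc2a5, a fructose transporter, were among the 12 genes furthest below, with mean log2 ratios of -1.66 to -1.22. Enpp2, Ttr and Chchd10 were also among the genes with the lowest mean ratios, but against the 7 large clusters alone these were -0.62, -0.09 and 0.73. Chchd10 stood at 0.0497 and 0.184 against 0.0526 and 1.01, with log2 ratios of -0.07 in WT and -2.40 in iKD, and was not called. Ttr stood at 1031 in the 130 iKD cells of the cluster named Astrocytes and between 9.44 and 17.3 in the other 10 clusters of that library, so 1 cluster set the level it was compared with. Of 7 glucocorticoid-responsive genes Ddit4 and Tsc22d3 were lower, and of 15 microglia transcription factors Id2, an inhibitor of bHLH factors, was higher.

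The 4 markers given for the cluster did not set it apart alike. Apoe, the lipid carrier apolipoprotein E, stood at 14.2 and 13.9 against 3.73 and 4.34 and was higher, with log2 ratios of 1.92 in WT and 1.68 in iKD. Aldoa, a glycolytic aldolase, stood at 2.92 and 2.87 against 1.54 and 1.82 and was higher, with 0.92 and 0.65, but lower with -0.14 when the 11 clusters counted equally, and it stood at 19.2 in the 4 WT and 17.8 in the 130 iKD cells of the cluster named Astrocytes. The chaperone Hspa8, with 0.57 and 0.42, and Sox4, a transcription factor of progenitors, with 0.14 and 0.29, were not called. In WT, Apoe was higher in qNSC2, at 20.6. Of other genes that the study names, B2m, the light chain of class I molecules, stood at 13.3 and 13.3 against 9.77 and 8.77, and Ccnd3, a D-type cyclin, at 4.78 and 4.51 against 8.13 and 6.52.

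The qNSC2 cells, the cluster closest by name, had low levels of most leading genes of qNSC1. Of 4179 genes at the level, 265 (6.34%) were higher and 157 (3.76%) lower in qNSC1. Lgals3, Gm13889, Gas2l3, Olfr111, Olfr110, Ccl4, Efna5 and Sdc4 were furthest above, with mean log2 ratios of 3.40 to 5.03, and Gm13889 stood at 1.21 and 1.23 against 0.0289 and 0.0277. Among the genes furthest below, Klf2, a Kruppel-like transcription factor, stood at 2.81 and 2.57 against 14.2 and 14.1 in qNSC2. Tsc22d3, a glucocorticoid-induced gene, stood at 1.295 and 1.08 against 4.56 and 3.71, and H2-Eb1, a class II chain, at 0.0443 and 0 against 1.42 and 0.0372, so that in iKD it was near 0 in both clusters. H2-Aa, another class II chain, had a log2 ratio of -4.25 in WT and -0.06 in iKD and was not called. Apoe did not separate the clusters in both libraries, with -0.54 and 0.22.

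The profile of qNSC1 was close to those of the other large clusters. Across genes, the Pearson correlation of its log2 levels (plus 0.1) was 0.983 in WT and 0.987 in iKD for NSPCs, the highest of all clusters, and 0.980 and 0.986 for qNSC2. For the cluster named Astrocytes, of 4 WT and 130 iKD cells, it was 0.491 and 0.827. These values describe likeness over genes measured in the same libraries.

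The leading genes were spread unevenly over the qNSC1 cells. Ccl4 was found in 76.1% of WT (67.99 to 83.1%) and 67.7% of iKD cells (59.8 to 74.9%), against 21.4% and 18.6% of cells of the other clusters. After thinning, the shares were 70.7% and 63.8% against 17.7% and 16.3%. The median and the 90th percentile over cells were 11.5 and 88.95 UMIs per 10,000 in WT and 5.65 and 52.8 in iKD. Apoe had medians of 4.99 and 4.43 and 90th percentiles of 35.8 and 43.99. Cx3cr1, by comparison, had quartiles of 23.2 and 39.7 in WT and of 23.1 and 38.9 in iKD. The variance of Ccl4 was 92.3 and 76.9 times its mean, that of Ccl3 31.4 and 24.9 times, and that of Cx3cr1 4.83 and 3.41 times. Cst3, Malat1, Apoe, Ccl12 and the protease Adamts1 were also among the 8 genes with the largest ratio of variance to mean.

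At least 5 UMIs of Ccl3 and Ccl4 together were held by 70.9% of WT and 62.02% of iKD cells, against 10.7% and 9.602% of cells in the other clusters. At least 5 UMIs of Apoe were held by 49.3% of WT and 45.6% of iKD cells, both by 32.8% of WT and 26.6% of iKD cells, and neither by 12.7% of WT and 18.99% of iKD cells. The cluster was thus mixed in both genes, and these cuts fall within continuous ranges.

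**Figure D3:**
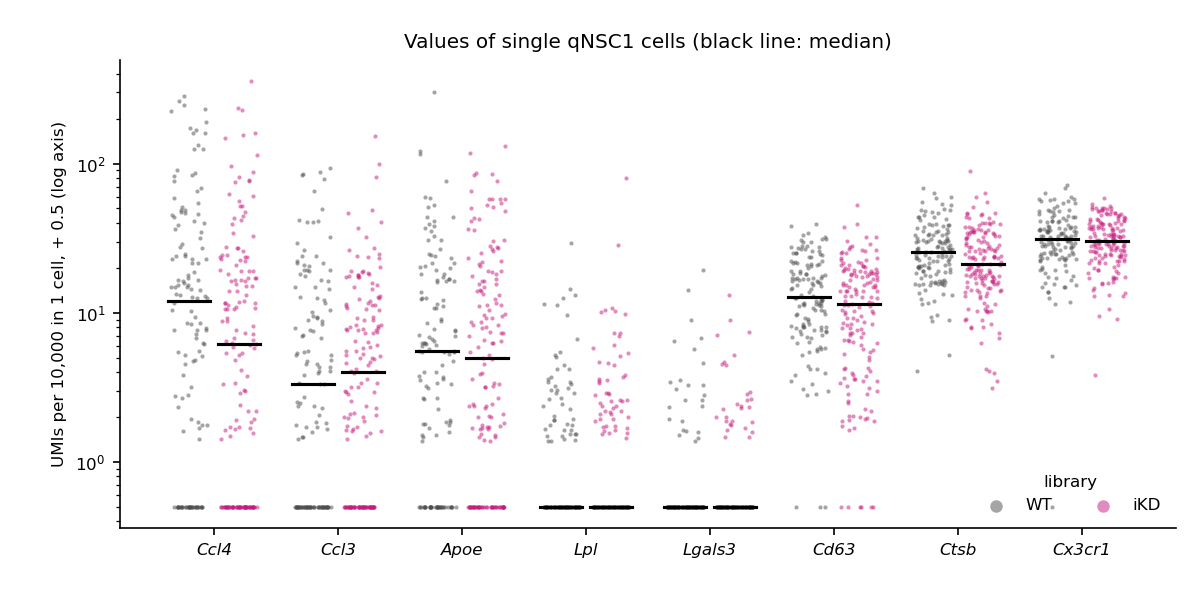
UMIs per 10,000 plus 0.5 in single qNSC1 cells (y axis, log scale) for 8 genes (x axis), with WT cells in grey, iKD cells in magenta and the median as a black line. Ccl4 and Apoe spread from 0 to above 100 in each library, whereas most values of Ctsb and Cx3cr1 stay within a narrow band.

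Correlations over cells are given as Spearman's rho over the 134 WT and 158 iKD cells, whose values share depth and counting noise. Ccl4 varied together with Ccl3, with 0.66 in WT and 0.57 in iKD, and with Id2, with 0.43 in WT and 0.35 in iKD. Cd83 varied with Gas2l3, with 0.47 in WT and 0.36 in iKD. Cd63 varied with the other lysosomal gene Ctsb, with 0.52 in WT and 0.56 in iKD, and with Cd9, with 0.34 in WT and 0.52 in iKD. Between the chemokine and activation genes and the lysosomal and tetraspanin genes the values differed by pair, with -0.11 in WT and -0.01 in iKD for Ccl4 with Cd63, 0.07 in WT and 0.35 in iKD for Cd83 with Ctsb, and 0.13 in WT and 0.27 in iKD for Id2 with Cd9. P2ry12 was lower in cells with more Ctsb, with -0.43 in WT and -0.34 in iKD, and with more Lgals3, with -0.35 in WT and -0.48 in iKD. Apoe had low or negative values with genes of either kind, with -0.13 in WT and -0.16 in iKD for Ccl4, -0.02 in WT and -0.05 in iKD for Cd63 and -0.24 in WT and -0.19 in iKD for Cd9. With the UMIs of the cell, rho was -0.10 in WT and -0.05 in iKD for Ccl4 and 0.04 in WT and 0.11 in iKD for Cd63.

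**Figure D4:**
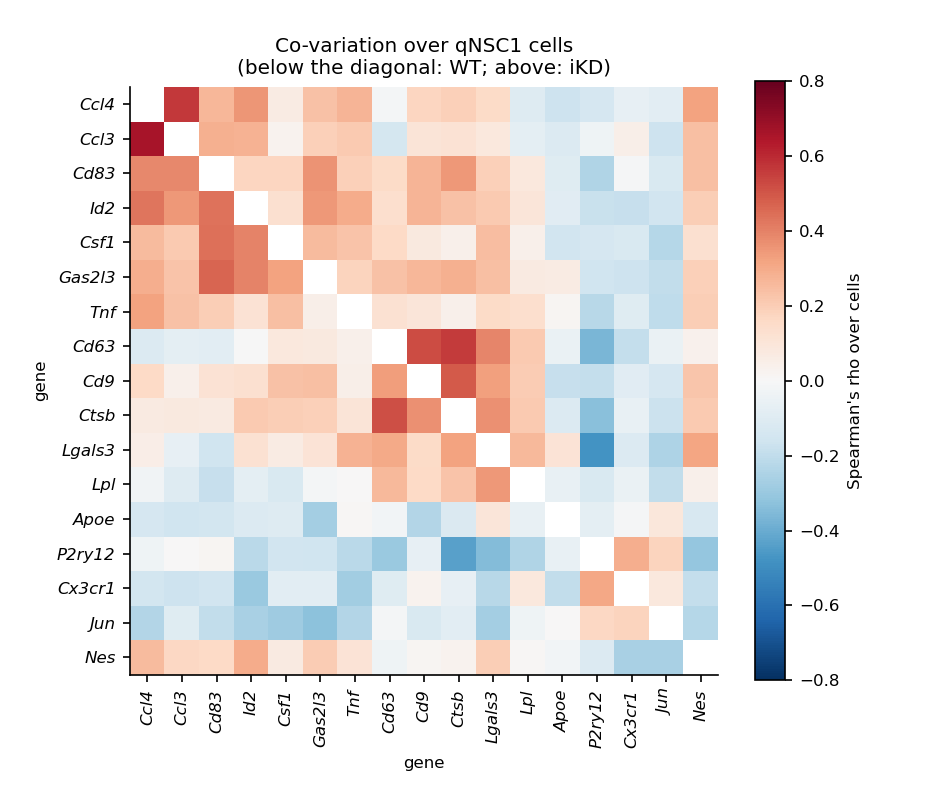
Spearman's rho over qNSC1 cells for each pair of 17 genes (both axes), with WT below and iKD above the diagonal, red for positive and blue for negative values. Ccl4, Ccl3, Cd83 and Id2 form a red block that is paler in iKD, Cd63, Cd9 and Ctsb form another, and the squares of P2ry12 with Ctsb and Lgals3 are blue in both libraries.

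Between genotypes, few genes of the qNSC1 cells differed 1.5-fold. Of 4149 genes at a level of 0.5 in the higher genotype, 80 (1.93%) were higher and 90 (2.17%) lower in iKD, and the median log2 ratio of iKD over WT was 0.01. These are differences between 2 libraries, in which genotype and pool of mice cannot be told apart. Leaving out, for each gene, the 2 cells of each library with its highest values, 74 were higher and 79 lower, of which 56 and 62 were among those above. The counts depended on depth and pseudocount, with 172 higher and 175 lower after thinning to 4500 UMIs and 41 and 55 with a pseudocount of 0.1. In female and in male cells taken alone, 74 of the 80 and 84 of the 90 had the same direction, although these cells are those that made the call. In the cells of the other clusters, 60 of the 80 and 56 of the 90 had the same direction.

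Some chemokine and activation genes stood lower in the iKD library. Ccl2 stood at 2.53 in WT and 0.630 in iKD cells, a log2 ratio of -1.99 (-2.38 to -1.61), but 62.4% of its WT UMIs lay in 2 cells and the ratio was -1.36 without the highest cells. Rcan1, an inhibitor of calcineurin, stood at 1.96 in WT and 0.708 in iKD cells, with -1.46 (-1.84 to -1.09), and was found in 48.5% of WT and 31.01% of iKD cells. Egr3, an immediate early transcription factor, stood at 0.537 in WT and 0.0710 in iKD cells, with -2.75 (-3.96 to -1.73). Of 16 immediate early genes at the level, 1 was lower and 0 higher in iKD, beside 2.17% and 1.93% of all genes. Their median was -0.05, and 9 of them lay below 0. In female and male cells the ratios were -1.82 and -1.93 for Ccl2, -1.16 and -1.94 for Rcan1, and -2.07 and -3.28 for Egr3, all of them below 0.

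Efna5, a ligand of Eph receptors, and Edn1, the vasoconstrictor endothelin 1, had the lowest ratios, with -3.05 and -2.85. In WT, 64.97% and 84.1% of their UMIs lay in 2 cells, and without the highest cells the ratios were -1.58 and -0.97. Xylt1, a xylosyltransferase of proteoglycan synthesis, Dgkh, a diacylglycerol kinase, Rev1, a DNA polymerase of lesion bypass, Olfr110 and Gas2l3 followed, with -1.44 to -1.13. Without the highest cells these ratios were -1.26 to -1.12, except for Xylt1, with -0.995.

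Ccl4 stood at 33.3 in WT and 21.03 in iKD cells, with -0.66 (-0.74 to -0.59), Csf1 at 3.01 in WT and 1.86 in iKD cells, with -0.70 (-0.94 to -0.45), and Id2 at 5.095 in WT and 3.18 in iKD cells, with -0.68 (-0.87 to -0.49). Ccl3, with -0.25, Cd83, with -0.41, and Tnf, with -0.40 (-0.73 to -0.08), were not called. Over the 8 chemokines and cytokines at the level, 2 were lower and 0 higher, and the median was -0.41, beside 0.01 over all genes at the level. Of the other genes furthest above the remaining clusters, Lgals3 had -0.41, Lpl 0.29, Olfr111 -0.64, Gadd45b -0.75, Plaur -0.32 and Tnfrsf12a -0.72. The same qNSC1 cells entered both comparisons, so the values are set side by side only. Within the iKD library the log2 ratios of the 12 against the other clusters were 2.12 to 4.47. The 12 were picked by a rule that required a ratio above 0 in both libraries.

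The genes higher in iKD had smaller ratios, apart from Ttr and Il12b. Ttr had 14 UMIs in WT and 1167 in iKD cells, a log2 ratio of 6.19 (5.43 to 7.06), and was found in 10.4% of WT and 100% of iKD cells. It differed alike in the cells of the other clusters, with a ratio of 5.84. In the iKD qNSC1 cells 30.7 Ttr UMIs were found for each UMI of Enpp2, another choroid plexus gene, against 22.7 in the iKD cells of the cluster named Astrocytes and 32.4 in the other 10 clusters. The part of free RNA in the Ttr value was not tested. Il12b, a subunit of interleukin 12, had 104 UMIs in iKD and 0 in WT cells, and 103 of them lay in 1 cell.

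Lats1, a Hippo pathway kinase, stood at 0.249 in WT and 0.567 in iKD cells, with 1.15 (0.50 to 1.83). Dhx40, an RNA helicase, Tmem134, Golga5, Oxa1l, a mitochondrial insertase, and Stx2, a syntaxin, had ratios of 0.92 to 1.10, and like Lats1 they were above 0 in both sexes. Tcim and Sult1a1 were higher over all cells, with 1.01 and 0.97, but not in male cells, with -2.97 and -0.26.

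**Figure D5:**
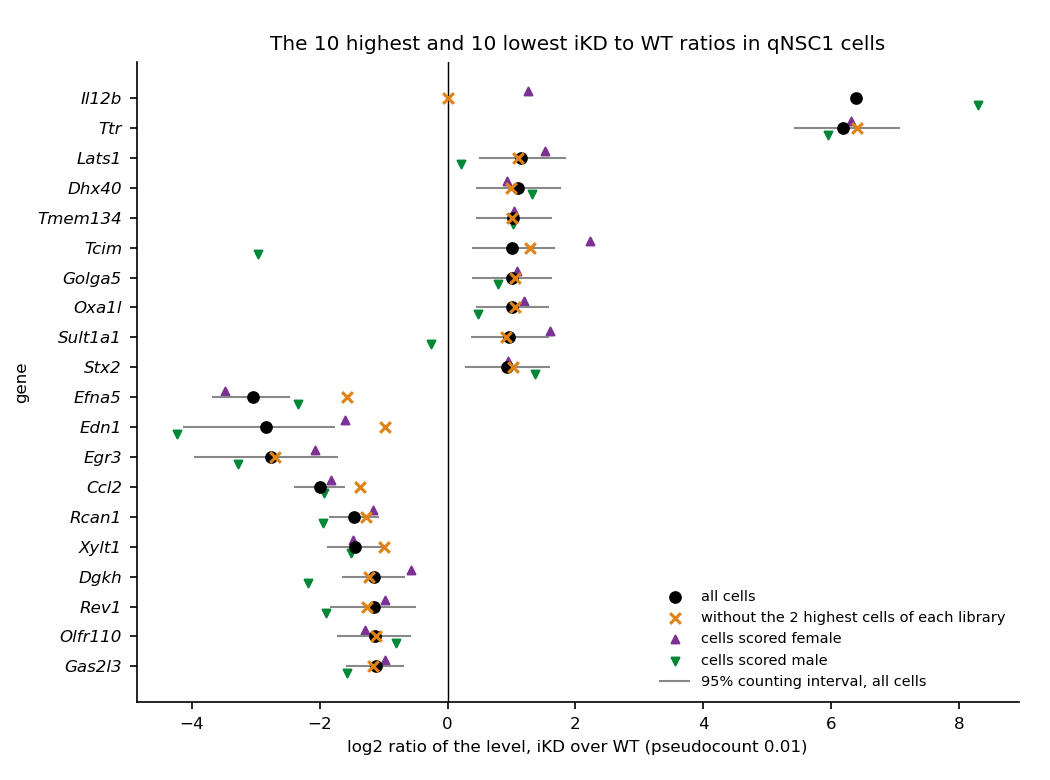
Log2 ratio of the iKD over the WT level in qNSC1 cells (x axis) for the 10 genes with the highest and the 10 with the lowest ratio (y axis), with all cells as black circles with 95% counting intervals, female cells as purple and male cells as green triangles, and values without the 2 highest cells of each library as orange crosses. Il12b, which has no interval as its WT count is 0, falls to 0 without those cells, and the 10 lower genes stay below 0 in every view.

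Calls in the other gene groups are given beside the 1.93% of all genes higher and 2.17% lower in iKD. Of the 4 markers given for the cluster, Aldoa, with -0.02 (-0.24 to 0.20), and Apoe, with -0.03 (-0.13 to 0.07), lay near 0, and Sox4 was at 0.26. Hspa8, at 12.3 in WT and 9.55 in iKD cells, was at -0.36 (-0.48 to -0.25). It was also lower in iKD in each of the 7 large clusters, as in eNB, with 7.65 in WT and 6.12 in iKD. Of 15 glycolytic genes only Pfkfb3 was lower and the median was -0.34, with -0.42 in female and -0.04 in male cells. Of 13 genes of disease-associated microglia only Csf1 was lower, with a median of -0.13. The medians were -0.25 for 11 chaperones, -0.24 for 7 genes of ribosome biogenesis, -0.07 for 18 lysosomal genes and 0.03 for the 15 homeostatic markers, with 0 called in each of these. Cd74 was the only antigen presentation gene called of 7, with -0.60.

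Of 5 genes that the study groups under cell-substrate junctions at the level 0 were called, and all 5 ratios lay below 0. Their median was -0.36, with -0.33 in female and -0.54 in male cells, beside 0.01 over all genes, and as the study chose the list on these samples this is no independent evidence of a direction. Trem2 stood at -0.17, and at 0.22 in male cells, Ptprj, a receptor phosphatase, at -0.22, Pik3r1, a regulatory subunit of PI3 kinase, at -0.44 and Ptk2b, a kinase related to focal adhesion kinase, at -0.55. Trem2, like Hspa8, was also lower in iKD in each of the 7 large clusters, though in IPC2 only with 16.829 in WT and 16.817 in iKD. Pik3r1 was lower in all of them but eNB, with 6.873 in WT and 6.875 in iKD. Ptprj and Ptk2b were lower in some of them and higher in others, eNB among the latter. Enpp2 had 0 UMIs in WT and 38 in iKD cells, and its level was also higher in iKD in each of the 7 large clusters. Of 6 glucocorticoid-responsive genes Fkbp5 was lower, with -0.60 over all cells, 0.16 in female cells and -1.91 in male cells, and the median of the list was 0.01 in female and -0.93 in male cells.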

How the data were processed

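Single-cell RNA sequencing was done on 1 WT and 1 iKD library. Per the labels and the study's methods, reads were processed with Cell Ranger 7.0.1, and cells were filtered, integrated and grouped with Seurat 4.1.1. The processing notes also name CASAVA 1.8.2, HISAT2 2.0.6 and featureCounts. The mouse build is not given in the sources used here. The authors deposited natural log values, ln(1 + UMIs per 10,000), in 1 table per cluster. Whole UMIs were recovered from 100% of the 32261786 values above 0 (tolerance 0.01 UMI). All deposited cells were used and no doublet caller was run. Some genes that the rule names are not reported here.

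Levels are means over cells of UMIs per 10,000. Ratios are log2 with a pseudocount of 0.01, taken within each library and averaged for comparisons between clusters. Intervals (95%) are exact binomial or Poisson. No test was made. Sex was scored from Xist and from Ddx3y, Eif2s3y, Uty and Kdm5d. Genes named are the markers given for the cluster, genes the study names, members of the gene lists, the 10 highest levels, the 8 largest variances over the mean, and the largest ratios against the other clusters (12 each way), qNSC2 (8) and WT (10). The members and lists were chosen with earlier results of these data known. Alternatives changed the pseudocount, level, fold, scaling, sex, depth and cells. The recovery of UMIs and the iKD to WT ratios were tried on simulated data with counting noise only. The comparisons between clusters were not simulated. Software versions were Python 3.11.15, numpy 2.4.6, pandas 2.3.3, scipy 1.17.1 and matplotlib 3.10.9.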

Additional observations from a re-analysis of the deposited data

Results flagged for a closer look

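Of 3895 genes, 9 had iKD to WT ratios in qNSC1 cells of at least 1.5-fold in opposite directions in female cells (86 WT and 108 iKD) and male cells (41 and 41), with counting intervals that did not include 0. The values are log2 ratios of iKD over WT. Errfi1 had -0.87 in female and 0.89 in male cells. Srrt had -0.92 in female and 1.37 in male cells. 2010013B24Rik had 0.68 in female and -1.07 in male cells. Trim28 had -1.01 in female and 1.24 in male cells. Impdh2 had -0.67 in female and 0.96 in male cells. Ccl9 had -1.06 in female and 1.09 in male cells. Tob2 had 1.53 in female and -1.49 in male cells. Adrb1 had 0.86 in female and -0.70 in male cells. G530011O06Rik had -1.29 in female and 0.73 in male cells. Ccl9, a chemokine, stood at 2.53 in WT and 1.21 in iKD female cells, and at 1.63 and 3.48 in male cells. The difference between the sexes was not tested, as each sex of each genotype came from 1 library.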

How the results depend on the processing

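No paired analysis was possible because each genotype has 1 library. Counts are given as genes higher and lower. Against the other clusters (269 and 168), they were 446 and 257 with a level of at least 0.2, 160 and 102 with at least 1, 816 and 1070 with no filter, and 88 and 21 from 2-fold. Male cells alone gave 283 lower. Against qNSC2 (265 and 157), they were 448 and 257 with a level of at least 0.2, 1008 and 864 with no filter, 92 and 24 from 2-fold, 159 higher with a level of at least 1, and 266 lower in male cells alone. Between genotypes (80 and 90), they were 41 and 55 with a pseudocount of 0.1, 374 and 324 with a level of at least 0.2, 14 and 31 with at least 1, 2715 and 2433 with no filter, 8 and 12 from 2-fold, 178 and 167 in female and 465 and 430 in male cells, and 172 and 175 after thinning to 4500 UMIs. Without the 2 qNSC1 cells with the highest value of a gene in each library, an alternative chosen after the data were seen that lowers every qNSC1 level, they were 177 and 305 against the other clusters, and 288 were lower than in qNSC2. The qNSC1 share of male iKD cells was 3.67%. Other values turned in direction for Aldoa, at -0.14 when the 11 other clusters were weighted equally, and for Tcim, at -2.97, and Sult1a1, at -0.26, in male cells. Of genes that were not called, Chchd10 against the other clusters, at -1.24, was at 0.53 in female cells and 0.73 against the 7 large clusters, and H2-Aa against qNSC2, at -2.15, was at 1.06 in male cells. Fkbp5 between genotypes, at -0.60, was at 0.16 in female cells. Of single genes' log2 ratios, 96 left the range set for them, while 917 stayed within it. Settings that changed only the level or the fold cannot change a ratio, so part of the 917 was fixed in advance. The range was the counting interval, or 1.5-fold either way against qNSC2. Il12b between genotypes has no interval and was counted among the 96 even where a setting left its ratio unchanged. Of the 96, 21 were in male and 10 in female cells, 10 without the 2 highest cells and 9 with equal weights. A pseudocount of 0.1 gave 18, all nearer to 0 (Gas2l3 from 5.00 to 3.03). With the 11 other clusters weighted equally, 246 genes were higher and 242 lower than in the other clusters. The other 69 counts, shares and levels moved by less than 1.5-fold or their counting interval. With 134 and 158 cells, genes near the level of 0.5 rest on few UMIs.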
